A study of Mus musculus with 15 samples.

Results

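The comparison described here is that of jejunal epithelium lacking both Brg1 and Apc with jejunal epithelium lacking Apc alone. It took 7 of the 15 arrays of a mouse study: the 4 Brg1-Apc deficient arrays (VillinCreERT2+ Apcfl/fl Brg1fl/fl) and the 3 Apc deficient arrays (VillinCreERT2+ Apcfl/fl Brg1+/+). The other arrays were 4 from Brg1 deficient mice (VillinCreERT2+ Brg1fl/fl) and 4 from control mice without Cre (VillinCreERT2-). All mice, the controls included, were given tamoxifen at 80 mg/kg on each of 4 days, and all were sampled at day 4 after induction. Cre under the Villin promoter, in a form that tamoxifen activates, recombines floxed alleles in the intestinal epithelium and leaves immune cells, fibroblasts and muscle unrecombined. The material was epithelium scraped off the muscle wall, so it was enriched for epithelial cells and not pure. Replicates were separate mice of each cohort. The mice's ages and sexes are not given in the sources used here.

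Brg1, encoded by Smarca4, is an ATPase of the SWI/SNF complexes, which move nucleosomes and open chromatin at promoters and enhancers. Apc is a scaffold of the beta-catenin destruction complex, and its loss in the gut switches on Wnt target genes, enlarges the crypts and holds back enterocyte differentiation. In the normal small intestine Wnt signalling is strongest at the crypt base, where Lgr5-positive stem cells divide beside Paneth cells, and it fades as cells climb the villus to become absorptive enterocytes.

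Total RNA of each mouse was hybridised to 1 bead array, and the values are log2 levels of 25695 probes, of which the brightest for each gene symbol gave 16592 genes. In scraped tissue, a lower level can come from fewer cells of a type or from less RNA per cell, and these cannot be told apart. Pearson correlations over all probes were 0.951 to 0.973 within the Brg1-Apc deficient arrays, 0.966 to 0.970 within the Apc deficient arrays and 0.908 to 0.958 between the groups. The first principal component of the 7 arrays held 47.5% of the variance and separated the groups, and the second (17.5%) set Brg1-Apc deficient replicate 2 apart from the other 6. The arrays lay on 2 slides. Brg1-Apc deficient replicates 1 and 2 and Apc deficient replicates 1 and 2 were on slide 1, and the other 3 arrays were on slide 2. The epithelial marker Cdh1 averaged 10.80 ± 0.11 on the Brg1-Apc deficient arrays and 10.84 ± 0.07 on the Apc deficient arrays (SD, n = 4 and 3). Vil1, whose promoter drives the Cre, averaged 11.87 ± 0.78 in Brg1-Apc deficient and 11.66 ± 0.88 in Apc deficient epithelium. Of the other epithelial markers chosen, Krt18 was lower in Brg1-Apc deficient epithelium (-1.76 on the log2 scale, limma adjusted p = 0.000253). Cdx2 was higher there without overlap and did not pass, and Epcam, Krt8 and Fabp2 are not given. Whether the groups held equal shares of epithelial cells was not tested.

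Smarca4, the gene deleted between the groups, read 6.04, 6.10, 6.16 and 6.04 on the Brg1-Apc deficient arrays, against 8.40, 8.17 and 7.88 on the Apc deficient arrays. The groups did not overlap. The difference was -2.07 on the log2 scale (SE 0.18, limma adjusted p = 7.28e-06), a level 4.19-fold lower, and the Brg1-Apc deficient values sat close to 5.90, the highest of the array medians, taken here as the background level. Apc, floxed in both groups, averaged 6.03 ± 0.49 on the Brg1-Apc deficient arrays and 7.07 ± 0.84 on the Apc deficient arrays. That difference did not pass (adjusted p = 0.217), and since the probe's place relative to the deleted exons was not examined, it checks nothing.

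Genes that fell in Brg1-Apc deficient against Apc deficient epithelium included crypt, growth and interferon-stimulated genes, and genes that rose included those of mature enterocytes. Of 16592 genes, 1296 changed at an adjusted p under 0.05 (7.81%): 650 were higher (3.92%) and 646 lower (3.89%) in Brg1-Apc deficient epithelium. Among these, 447 were higher and 489 lower by more than 2-fold, and 85 were higher and 68 lower by more than 4-fold. In 1245 of the 1296 the 4 and the 3 arrays did not overlap, as was so in 3809 of all genes (23.0%). The changed genes were brighter than most, with medians over the 7 arrays of 9.03 for the higher genes and 8.06 for the lower ones, against 5.72 for all genes. Apc deficient replicate 2 weighed most on the count, which was 465 without it (262 higher and 203 lower). It was 823 without Apc deficient replicate 1, 783 without Brg1-Apc deficient replicate 4 and 2043 without Brg1 deficient replicate 4, an array that entered through the shared estimate of spread. Each of the 1296 genes kept its sign in every fit that left out 1 array. For the 1245 without overlap this was fixed in advance, so it says little about their stability.

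**Figure D1:**
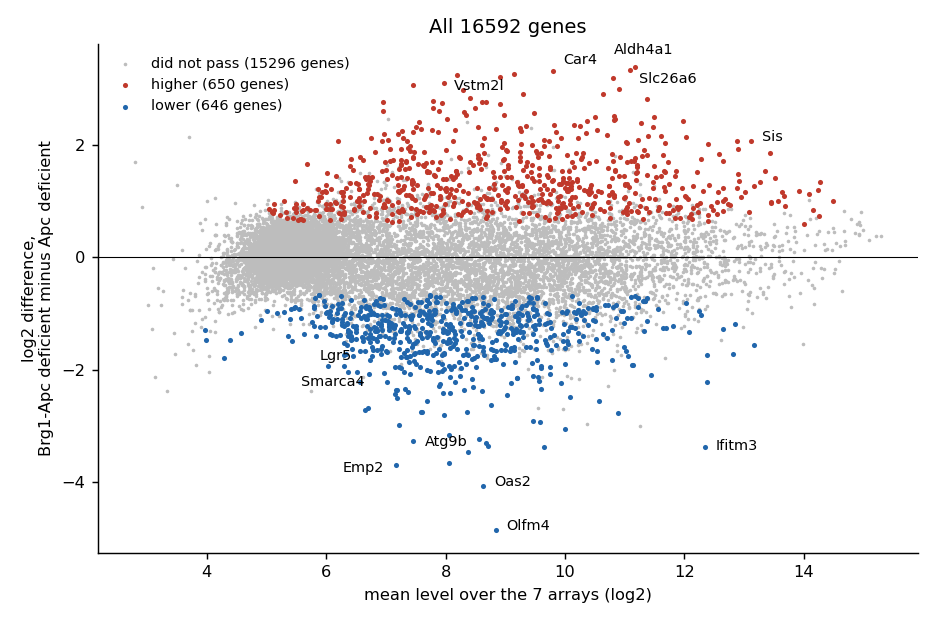
Each point is 1 of 16592 genes, with its mean log2 level over the 7 arrays on the x axis and its log2 difference, Brg1-Apc deficient minus Apc deficient, on the y axis. Red points are the 650 genes that were higher and blue points the 646 that were lower, and Olfm4 lies lowest at -4.85.

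The largest fall was that of Olfm4, a secreted glycoprotein of crypt base stem cells. It read 6.39, 6.70, 7.35 and 6.61 on the Brg1-Apc deficient arrays, against 12.42, 12.06 and 10.35 on the Apc deficient arrays. The groups lay far apart, and Apc deficient replicate 3 was the lowest of its group. The mean was 28.8-fold lower in Brg1-Apc deficient epithelium (-4.85, SE 0.49, adjusted p = 2.84e-05), and the log2 difference was -5.48 without Apc deficient replicate 3. Emp2, a tetraspan membrane protein, fell 13.0-fold and stood at 5.22 to 6.03 in Brg1-Apc deficient epithelium, around background, against 8.90 to 9.54 in Apc deficient epithelium. Atg9b, a relative of the autophagy scramblase Atg9a, fell 9.83-fold (adjusted p = 2.67e-06), to 6.70 to 7.77 in Brg1-Apc deficient epithelium against 10.21 to 11.02 in Apc deficient epithelium. Psat1, an enzyme of serine synthesis, fell 10.3-fold and Rgcc, a regulator of cell cycle kinases, 7.62-fold. Among the falls of smallest p were Cd276, an immune checkpoint ligand of the B7 family (-2.56, adjusted p = 2.67e-06), Fgfrl1, an FGF receptor without a kinase domain (-1.93, adjusted p = 1.99e-05), Ror2, a receptor for Wnt5a (-2.22, adjusted p = 2.58e-05), and the simple-epithelium keratin Krt7 (-2.10, adjusted p = 2.89e-05). Ror2 read 5.47, 5.56, 5.54 and 5.86 with both genes lost, all at background, against 7.92, 8.11 and 7.45 with Apc lost alone. None of these 9 falls lost its call when any single array was left out.

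The largest rise was that of Aldh4a1, a mitochondrial enzyme of proline breakdown. It read 12.81, 12.27, 12.41 and 13.01 on the Brg1-Apc deficient arrays, against 10.36, 7.89 and 9.48 on the Apc deficient arrays, 10.4-fold higher (3.38, SE 0.41, adjusted p = 0.000124). Apc deficient replicate 2 lay lowest, and the difference was 2.71 without it. Slc26a6, an anion exchanger of the brush border, rose by 3.32 on the log2 scale (2.72 without Apc deficient replicate 2). Car4, a membrane-anchored carbonic anhydrase of enterocytes, rose 9.92-fold, with 10.94, 11.25, 11.16 and 11.50 in Brg1-Apc deficient epithelium against 7.48, 7.96 and 8.27 in Apc deficient epithelium. Both genes serve bicarbonate handling, and in both the groups lay far apart. Arg2, the mitochondrial arginase, rose 9.59-fold, and Asah2, the neutral ceramidase of the brush border, 9.13-fold. Rapgefl1, a relative of guanine nucleotide exchange factors, read 9.30, 9.23, 9.12 and 9.52 in Brg1-Apc deficient epithelium, against 6.55, 6.25 and 5.79 in Apc deficient epithelium. It had the smallest p among the named rises (3.09, SE 0.22, adjusted p = 2.16e-06). Further rises of small p were those of Vstm2l (2.91, adjusted p = 2.67e-06), Ppfia3, a scaffold of the liprin family (2.73, adjusted p = 2.67e-06), the lysosomal sulfatase Arsa (2.66, adjusted p = 7.7e-06) and Gpt, alanine aminotransferase (2.52, adjusted p = 8.09e-06). Dbp, an output gene of the circadian clock, rose 9.49-fold, and Arntl, which encodes the clock activator Bmal1, fell by 0.92 (adjusted p = 0.0413, not past the test without 9 of the 15 arrays, left out singly; highest p 0.142). The other 18 of the 20 measured clock genes did not pass.

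Genes were then grouped into lists by role, with earlier results of these data known, so the shares describe the lists and test nothing. Differences are on the log2 scale, Brg1-Apc deficient minus Apc deficient. Each count stands beside the shares over all genes, 3.92% higher and 3.89% lower, and each median beside 0.05, the median difference of all genes. Those shares are low for lists of bright genes. After a filter on dim probes, 809 of 9002 genes were higher and 847 lower. Many counts were lower without Apc deficient replicate 2, and that count stands beside most of the lists it lowered.

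**Figure D2:**
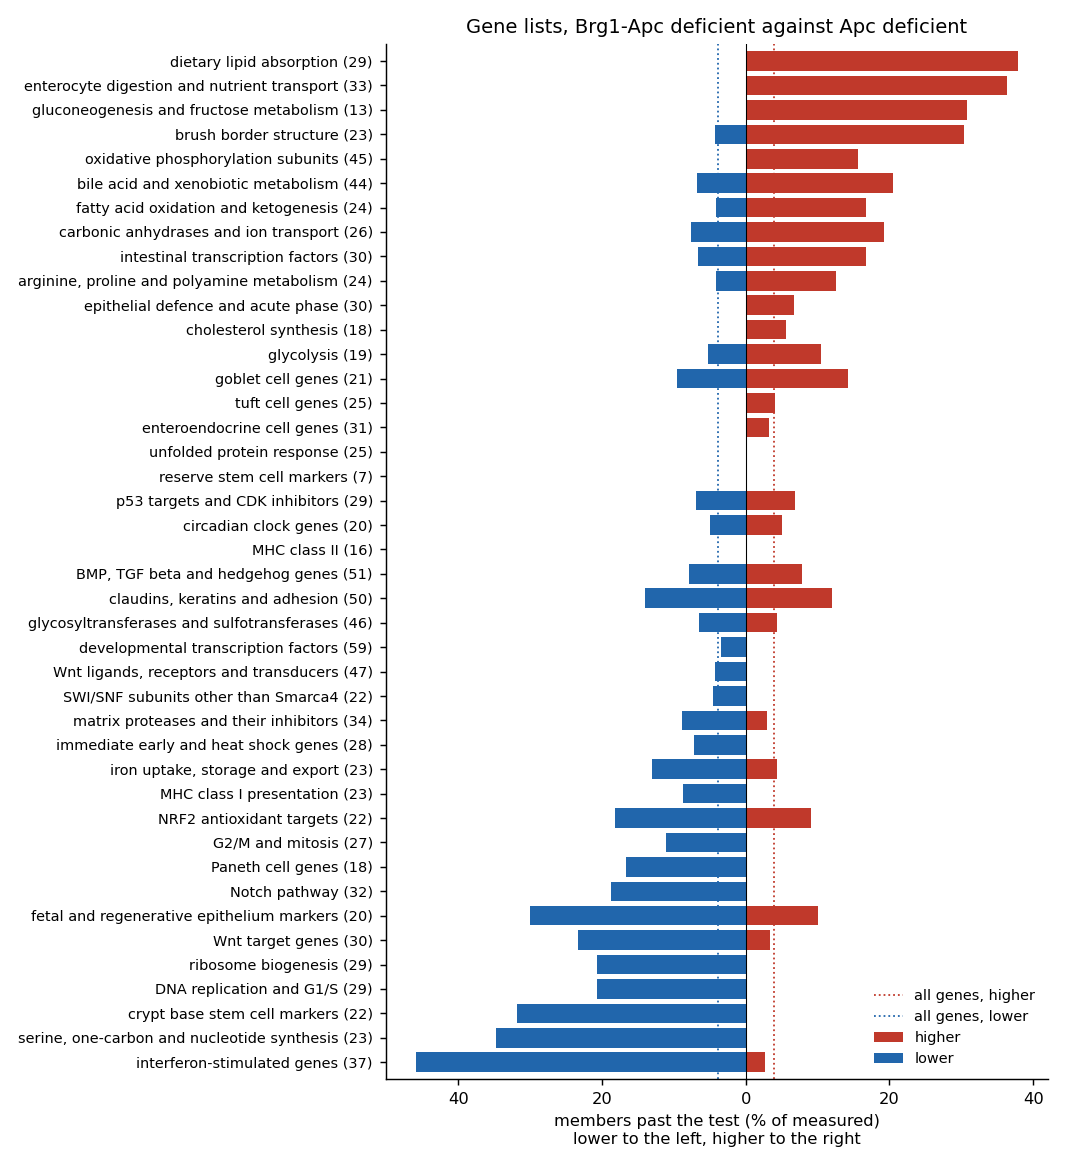
Each bar is the percentage of a list's measured genes that passed the test, higher to the right in red and lower to the left in blue, with the number measured in brackets. The dotted lines mark the shares over all genes, and the interferon-stimulated genes (17 of 37 lower) and dietary lipid absorption genes (11 of 29 higher) lie at the ends.

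Some stem cell and Wnt target genes fell, and most of either list did not pass. Of 22 crypt base stem cell markers, 7 fell and none rose (median -0.88), and the lowest count over leaving out each array in turn was also 7. Lgr5, the receptor for R-spondins that marks these cells, read 5.67, 5.99, 6.24 and 5.92 on the Brg1-Apc deficient arrays, against 7.80, 8.42 and 7.13 on the Apc deficient arrays (-1.83, SE 0.26, adjusted p = 0.000362). Its Brg1-Apc deficient mean of 5.96 was near the 5.91 of Brg1 deficient and the 6.02 of control epithelium, values around background. Ascl2, the transcription factor of the stem cell state, averaged 6.08 ± 0.60 in Brg1-Apc deficient and 7.42 ± 0.10 in Apc deficient epithelium (adjusted p = 0.00519). Sox9, a transcription factor of the crypt base, fell by 1.50 (adjusted p = 0.00613), the surface receptor Cd44 by 1.28 (adjusted p = 0.00663) and Tnfrsf19 by 1.23 (adjusted p = 0.00699). Igfbp4, an IGF binding protein of the crypt base, fell by 2.24 (adjusted p = 0.00758). The list was not level with control tissue: its mean level per array was 7.26 to 7.73 in Brg1-Apc deficient, 8.30 to 8.55 in Apc deficient, 6.16 to 6.68 in Brg1 deficient and 7.02 to 7.31 in control epithelium.

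Of 30 Wnt target genes, 7 fell, 1 rose and 22 did not pass (median -0.27). Beside Lgr5, Ascl2, Sox9, Cd44 and Tnfrsf19, which both lists hold, these were Myc, the growth regulator (-1.93, adjusted p = 0.00115), and Tiam1, an activator of the GTPase Rac (-1.81, adjusted p = 0.000509). Myc read 5.44, 5.64, 5.22 and 4.49 on the Brg1-Apc deficient arrays, all below background, against 7.11, 7.84 and 6.43 on the Apc deficient arrays. Tgfbi, an extracellular matrix protein, was the member that rose (1.30, adjusted p = 0.0342), and its call was lost without Apc deficient replicate 2 or 3 or Brg1-Apc deficient replicate 1 or 4 (adjusted p up to 0.169). Other targets did not pass. Axin2, a scaffold of the destruction complex, averaged 10.98 ± 0.50 in Brg1-Apc deficient and 12.02 ± 0.15 in Apc deficient epithelium, without overlap (-1.04, adjusted p = 0.0876), and it averaged 9.08 in Brg1 deficient and 10.02 in control epithelium. Sp5, a transcription factor that Wnt signalling induces, averaged 9.57 ± 0.22 in Brg1-Apc deficient and 9.97 ± 0.46 in Apc deficient epithelium (adjusted p = 0.432). Both means of Sp5 exceeded those of Brg1 deficient (6.04) and control (7.65) epithelium. Ccnd1, cyclin D1, averaged 11.01 ± 0.44 and 12.20 ± 0.19 in Brg1-Apc deficient and Apc deficient epithelium (adjusted p = 0.0906). Of 47 ligands, receptors and transducers of the pathway, 2 fell, Ror2 and the receptor Fzd7 (-1.52, adjusted p = 0.00639; 0.05 without Apc deficient replicate 2), and none rose (median 0.11). Of the 47, 29 were at background in both groups, and a median near that of all genes says little about such genes.

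**Figure D3:**
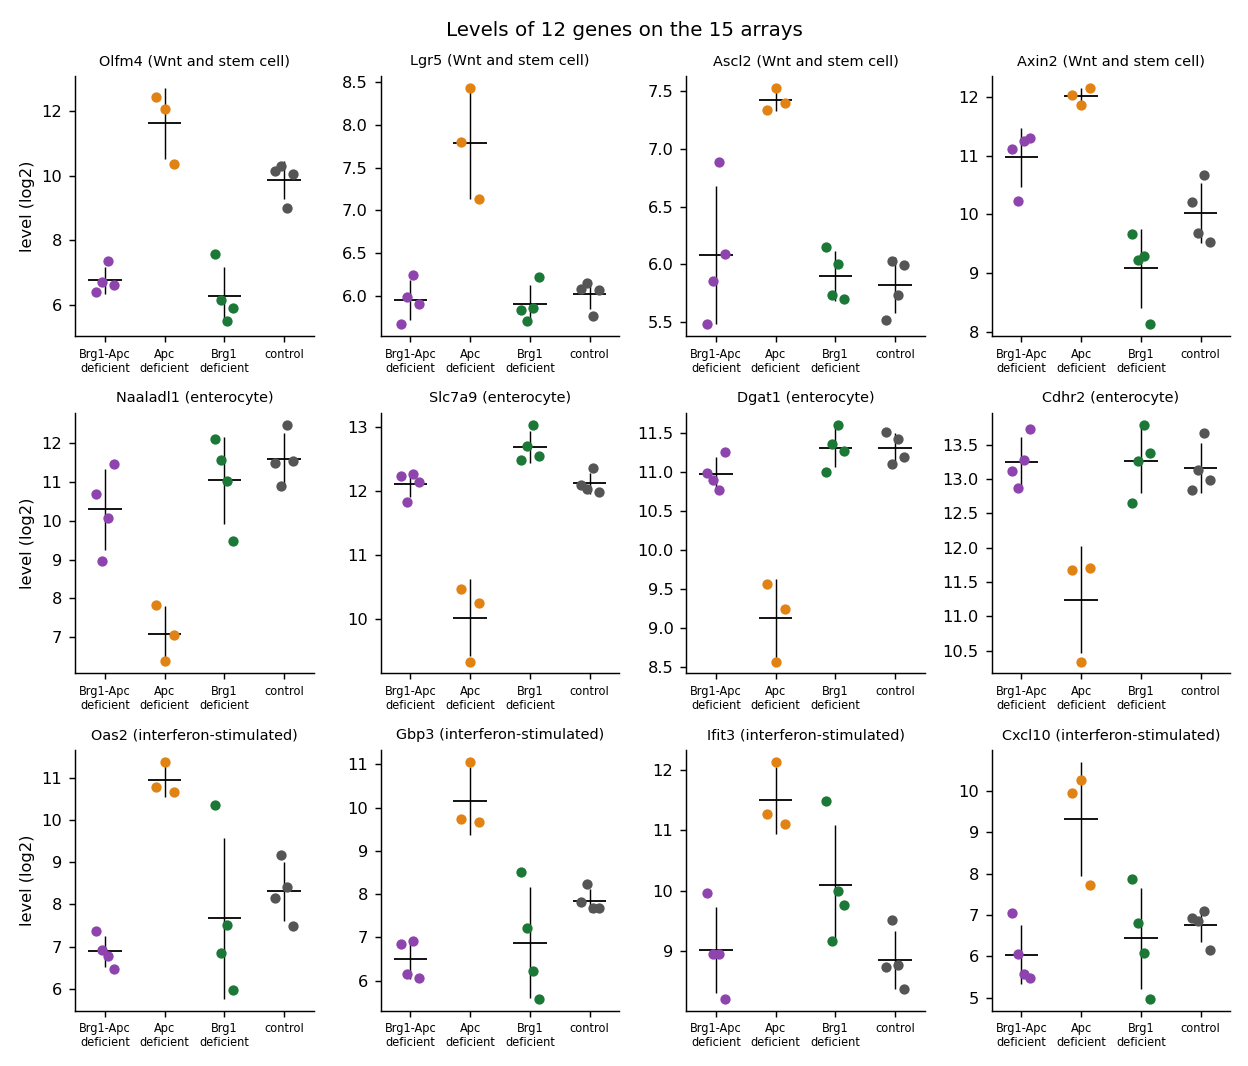
Points are the log2 levels of 12 genes on each array, with the group mean as a horizontal bar and the SD as a vertical line, for Brg1-Apc deficient (n = 4), Apc deficient (n = 3), Brg1 deficient (n = 4) and control (n = 4) epithelium. Lgr5 lies at 5.67 to 6.24 in Brg1-Apc deficient and at 7.13 to 8.42 in Apc deficient epithelium, while Axin2 stays above its control mean of 10.02 in both.

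Lists of dividing and growing cells had medians below that of all genes, with a minority of members past the test. Of 29 genes that act in the G1/S transition and in DNA replication, 6 fell and none rose (median -0.63). Mcm3, a subunit of the replicative helicase, fell by 2.02 (adjusted p = 0.00131) and Mcm10, which loads onto that helicase, by 1.37 (adjusted p = 0.0053). In mitosis and G2/M, 3 of 27 genes fell (median -0.84), Nusap1, Ndc80 and Kif4. Of 29 genes of ribosome biogenesis 6 fell (median -0.71), among them Wdr74 (-1.36, adjusted p = 0.00306) and the nucleolar protein Nop56 (-2.15, adjusted p = 0.0194). These counts leaned on single arrays: without Apc deficient replicate 2 they were 2, 0 and 1, and without other arrays up to 11, 7 and 8. Nusap1 read 8.13, 8.19, 8.05 and 8.01 on the Brg1-Apc deficient arrays against 9.23, 9.26 and 9.33 on the Apc deficient arrays, a clear separation with a call that was lost without any one of 6 arrays, all 3 Apc deficient ones included (adjusted p up to 0.116). Ndc80 and Nop56 lost their calls without Apc deficient replicate 1 or 2, Ndc80 also without Brg1-Apc deficient replicate 2 or 3 and Nop56 without replicate 4 (highest adjusted p 0.121 and 0.116), and Kif4 without 8 of the arrays (highest 0.219). Mean levels of the replication list were 8.17 to 8.42 in Brg1-Apc deficient and 8.93 to 9.14 in Apc deficient epithelium, and both exceeded the 7.54 to 7.79 of control epithelium.

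Among enzymes that make serine, one-carbon units and nucleotides, 8 of 23 fell and none rose (median -0.91), with 4 falls without Apc deficient replicate 2 and up to 13 without another array. Psat1 read 7.07, 7.18, 7.67 and 7.12 on the Brg1-Apc deficient arrays, against 9.90, 11.37 and 10.61 on the Apc deficient arrays (-3.37, adjusted p = 0.000154). Phgdh, the first enzyme of serine synthesis, fell by 1.87 (adjusted p = 0.00123), the mitochondrial folate enzyme Mthfd2 by 1.84 (adjusted p = 0.00385) and Shmt1, which moves a carbon from serine to folate, by 1.33 (adjusted p = 0.00519). These 4 calls held without any single array. Of 337 measured genes whose symbol starts with Slc, most of them membrane carriers, 12 fell and 33 rose (median 0.17). Among the falls, Slc1a4, a neutral amino acid carrier, fell by 2.37 (adjusted p = 0.00203) and the glucose carrier Slc2a1 by 1.42 (adjusted p = 0.000903). Ass1, argininosuccinate synthase, fell by 2.17 (adjusted p = 0.000222). In the list of arginine, proline and polyamine metabolism it was the 1 fall of 24, beside 3 rises: Arg2, the creatine synthesis enzyme Gamt (2.20, adjusted p = 0.000494) and the mitochondrial creatine kinase Ckmt1 (1.13, adjusted p = 0.00465).

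Among Notch pathway genes, 6 of 32 fell and none rose (median 0.02), 3 without Apc deficient replicate 2. Dtx4, an E3 ligase of the Deltex family, fell by 1.75 (adjusted p = 0.000306) and the receptor Notch4 by 1.71 (adjusted p = 0.00161). Hes1, the repressor that Notch signalling induces in progenitors, read 7.34, 6.11, 7.85 and 7.66 on the Brg1-Apc deficient arrays, against 9.04, 9.07 and 8.71 on the Apc deficient arrays (-1.70, adjusted p = 0.00899). The ligand Dll1 fell by 0.99 (adjusted p = 0.0135). Without Apc deficient replicate 2 the adjusted p of Hes1 was 0.0573 and that of Dll1 0.107. Olfm4 was in this list too. The other fall, that of the feedback inhibitor Nrarp (-0.96, adjusted p = 0.0461), was lost without any one of 11 arrays (adjusted p up to 0.15).

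The secretory lineage lists differed in how many members passed. Of 21 goblet cell genes 3 rose and 2 fell (median 0.02), and 2 and 1 without Apc deficient replicate 2: the mucosal peptide Tff3 rose by 1.44 (adjusted p = 0.0092, and 0.0872 without Apc deficient replicate 2) and Bcas1 by 1.45 (adjusted p = 0.00138), while the cation-chloride cotransporter family member Slc12a8 fell by 1.67 (adjusted p = 0.00079). Of 31 enteroendocrine genes 1 rose, Sct, which encodes secretin (1.18, adjusted p = 0.00742, and 0.0739 without Apc deficient replicate 2). Of 25 tuft cell genes 1 rose, the interleukin 25 receptor chain Il17rb (0.96, adjusted p = 0.00799), with means of 6.57 in Brg1-Apc deficient epithelium and 5.61, below background, in Apc deficient epithelium. Of 42 Paneth cell genes listed, only 18 were measured. Of the 18, 3 fell and none rose (median -1.10), with 1 fall without Apc deficient replicate 2. These were Sox9, the potassium channel Kcnn4 (-1.07, adjusted p = 0.0169) and the stress gene Nupr1 (-1.56, adjusted p = 0.0314), both lost without Apc deficient replicate 2 and also without Brg1-Apc deficient replicate 4 (highest adjusted p 0.117 and 0.16), and that of Nupr1 also without Brg1-Apc deficient replicate 1 or Apc deficient replicate 3. Ang4, an antimicrobial ribonuclease of Paneth cells, read 7.87, 10.85, 10.57 and 10.54 in Brg1-Apc deficient and 12.38, 11.89 and 11.63 in Apc deficient epithelium, and did not pass (adjusted p = 0.212). None of the 6 measured genes whose symbol starts with Defa, the defensins, passed (median -1.48). Among 20 markers of fetal and regenerating epithelium, 6 fell and 2 rose (median -0.15), and 4 and 1 without Apc deficient replicate 2. Anxa3, an annexin, fell by 2.22 (adjusted p = 0.000209) and the surface protein Ly6d fell by 2.14 (adjusted p = 0.000932), whereas the alarmin Il33 rose by 2.58 (adjusted p = 0.000282), with 9.15 to 9.54 in Brg1-Apc deficient against 6.14 to 7.42 in Apc deficient epithelium.

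Of 33 genes of digestion and nutrient uptake, 12 rose and none fell (median 1.26), with 5 rises without Apc deficient replicate 2 and up to 17 without another array. Slc1a1, a glutamate carrier, read 8.91, 9.42, 9.30 and 10.04 on the Brg1-Apc deficient arrays, against 7.02, 7.07 and 6.57 on the Apc deficient arrays (2.53, SE 0.26, adjusted p = 2.89e-05). Slc7a9, a chain of the cystine carrier, rose by 2.09 (adjusted p = 0.000102), Slc36a1, a proton-coupled amino acid carrier, by 1.65 (adjusted p = 0.00394) and the peptidase Naaladl1 by 3.20 (adjusted p = 0.00326). Sis, the disaccharidase sucrase-isomaltase, read 14.56, 12.82, 13.95 and 14.68 in Brg1-Apc deficient epithelium, against 12.68, 10.88 and 12.26 in Apc deficient epithelium (2.06, adjusted p = 0.00644). Its groups were separated by little, since Brg1-Apc deficient replicate 2 lay near Apc deficient replicate 1, and the call was lost without Apc deficient replicate 2 (adjusted p = 0.0616). The list stood between the Apc deficient and control levels, at 8.14 to 9.05 per array in Brg1-Apc deficient, 6.79 to 8.02 in Apc deficient, 8.48 to 9.40 in Brg1 deficient and 9.35 to 9.61 in control epithelium.

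Calls in dietary lipid absorption and the brush border were mostly rises. Of 29 lipid absorption genes 11 rose and none fell (median 0.69, 4 rises without Apc deficient replicate 2). Dgat1, which completes triglyceride synthesis, read 10.99, 10.89, 10.76 and 11.26 on the Brg1-Apc deficient arrays, against 9.56, 8.57 and 9.25 on the Apc deficient arrays (1.85, adjusted p = 0.00018). Mogat2, which acts a step earlier, rose by 2.17 (adjusted p = 0.00138), Pla2g12b, a phospholipase A2 family member needed for lipoprotein export, by 2.18 (adjusted p = 0.000252) and Tm4sf5 by 1.34 (adjusted p = 0.0043). The paired chains of the sterol exporter, Abcg8 and Abcg5, rose by 2.34 and 1.82 (adjusted p = 0.00541 and 0.00827), and both calls were lost without Apc deficient replicate 2 (adjusted p = 0.0514 and 0.0718; 1.75 and 1.28 on the log2 scale). Of 23 brush border genes 7 rose and 1 fell (median 0.48), with 3 rises and no fall without that array, and 3 and 1 when each array was centred on its median. Cdhr2 and Cdhr5, the cadherins that link microvillus tips, rose by 2.01 and 1.17 (adjusted p = 0.00165 and 0.00383), as did Ush1c, the scaffold that binds them (1.53, adjusted p = 0.00284). Vil1, the microvillus protein villin, differed by 0.22 (adjusted p = 0.828).

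**Figure D4:**
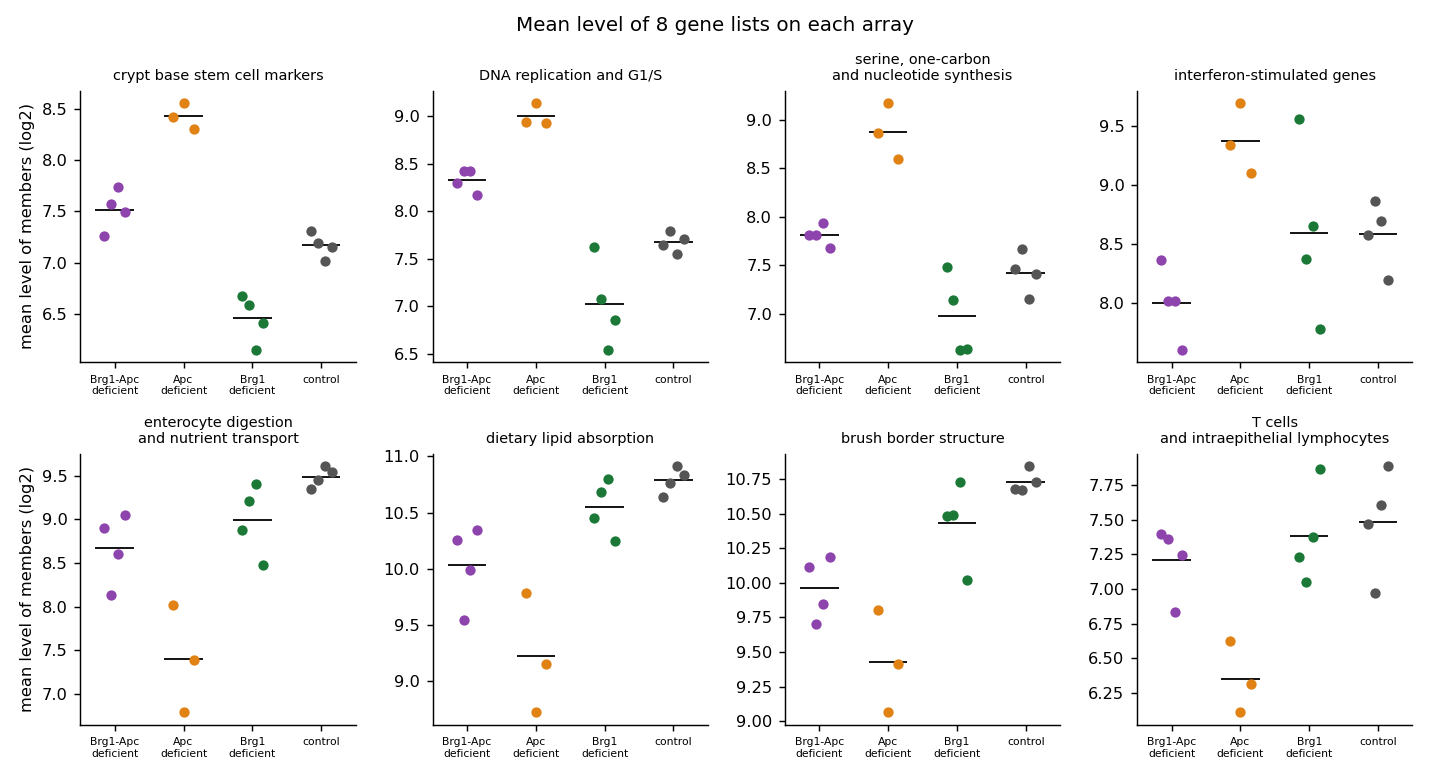
Points are the mean log2 level of a list's members on each array and bars the group means, for 8 lists in Brg1-Apc deficient, Apc deficient, Brg1 deficient and control epithelium. In the 3 enterocyte lists the Brg1-Apc deficient mean lies between the Apc deficient and the control means, and interferon-stimulated genes lie at 7.60 to 8.36 in Brg1-Apc deficient and at 9.10 to 9.69 in Apc deficient epithelium.

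The promoter of Sis is a textbook target of the intestinal transcription factor Cdx2, and is shown for that reason with its match to the CDX motif TTTATNG in capitals. The sequence is 250 bases before to 50 after the annotated start, from RefSeq on build GRCm38.p6, chr3:72967814-72968113, minus strand, read 5′ to 3′ along the gene:
Sis: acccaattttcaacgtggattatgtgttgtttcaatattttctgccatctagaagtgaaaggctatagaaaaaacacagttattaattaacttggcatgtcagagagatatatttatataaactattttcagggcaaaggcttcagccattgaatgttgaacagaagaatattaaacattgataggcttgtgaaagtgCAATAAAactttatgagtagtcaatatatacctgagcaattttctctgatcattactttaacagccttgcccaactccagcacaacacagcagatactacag
The motif, searched on both strands, was in 7 of the 25 promoters at hand of genes that rose in the enterocyte lists (28.0%) and in 9.65% of the 13336 promoters matched to measured genes. The windows of Abcg5 and Abcg8 overlap and share 1 match, counted for both. The CDX motif was in 8.85% of the promoters of all genes that rose, and in 5 of the 13 of interferon list genes that fell (38.5%). In Abcg5, Abcg8, Cideb, Dpp4 and Krt20 its match also holds the TATA box TATAAA, another of the motifs searched. The search cannot tell the 2 apart there. The TATA box was in 6 of the 25 (24.0%), in 6 of the 13 (46.2%) and in 12.7% of all promoters. The HNF4 motif CAAAGTCCA was in 0 of the 25 and in 0.442% of all promoters. In all, 9 motifs were searched, and the 2 shown were picked with the match counts known. Cdx2 averaged 12.36 ± 0.05 in Brg1-Apc deficient and 11.66 ± 0.34 in Apc deficient epithelium, without overlap, and did not pass (adjusted p = 0.166). Of 30 intestinal transcription factors, 5 rose and 2 fell (median 0.30), and 1 rose and 1 fell without Apc deficient replicate 2. Nr5a2, a nuclear receptor of crypt and liver, rose by 1.62 (adjusted p = 0.0066), and Pparg, a lipid-sensing nuclear receptor, fell by 1.33 (adjusted p = 0.00906). Cdx1, which like Cdx2 specifies intestinal fate, fell by 1.23 (adjusted p = 0.00644, and 0.0602 without Apc deficient replicate 2). Hnf4a, a driver of enterocyte genes, rose by 0.79 (adjusted p = 0.0261), with 12.03, 12.12, 12.09 and 11.90 in Brg1-Apc deficient against 11.10, 11.12 and 11.52 in Apc deficient epithelium. Its call was lost without Apc deficient replicate 1 or 2 or Brg1-Apc deficient replicate 1, 2 or 3 (highest adjusted p 0.14). Of 59 developmental transcription factors 2 fell and none rose (median 0.00), with 1 fall without Apc deficient replicate 2, and 44 of the 59 were at background in both groups.

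Bile acid handling and detoxification genes split in direction. Of 44, 9 rose and 3 fell (median 0.25), and 6 and 3 without Apc deficient replicate 2. Nr1h4, the bile acid receptor FXR, read 11.81, 11.96, 11.75 and 11.90 on the Brg1-Apc deficient arrays, against 9.93, 10.42 and 10.64 on the Apc deficient arrays (1.53, SE 0.21, adjusted p = 0.000335). The 2 chains of the basolateral bile acid exporter rose with it, Slc51b by 1.83 (adjusted p = 0.000982) and Slc51a by 2.04 (adjusted p = 0.00293). The glutathione transferases went both ways: Gsta1 and Gsta4 rose by 2.47 and 2.35 (adjusted p = 7.95e-05 and 0.000683), whereas Gsta3 fell by 2.69 (adjusted p = 0.000102), to between 5.32 and 5.73 with both genes lost, below background, against 7.75 to 8.52 with Apc lost alone. Of all 21 measured genes whose symbol starts with Gst, 6 rose and 2 fell. The sequences of these genes are alike, so probes of 1 may read another. Nqo1, a quinone reductase and target of the antioxidant factor NRF2, fell by 2.08 (adjusted p = 0.000222). Its other probe, which did not pass, had the opposite sign. Of 22 NRF2 targets, 4 fell and 2 rose (median 0.05). Gstm1 fell by 1.71 (adjusted p = 0.00435) and the cystine carrier Slc7a11 by 2.04 (adjusted p = 0.00476; by 2.75 without Apc deficient replicate 1), while Osgin1 rose by 1.44 (adjusted p = 0.000925).

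In the metabolic lists most genes did not pass, and most of the calls were rises. Of 13 genes of gluconeogenesis and fructose use, 4 rose and none fell (median 1.03), among them Ppargc1a, a coactivator of mitochondrial genes (1.20, adjusted p = 0.00628), and Fbp2, a fructose bisphosphatase (1.03, adjusted p = 0.00485). Khk, which phosphorylates fructose, rose by 2.11 (adjusted p = 0.0188), with 1.17 without Apc deficient replicate 2, and it did not pass without that array or Brg1-Apc deficient replicate 4 (highest adjusted p 0.0875). Of 45 subunits of oxidative phosphorylation 7 rose and none fell (median 0.23), and 1 was called without Apc deficient replicate 2. Uqcrc1, a subunit of complex III, rose by 1.16 (adjusted p = 0.00476). Of 24 genes of fatty acid oxidation and ketogenesis 4 rose and 1 fell (median 0.31), and none of these 5 calls survived leaving out Apc deficient replicate 2. Acads, a short-chain dehydrogenase, read 10.19, 10.31, 10.09 and 10.21 in Brg1-Apc deficient against 8.85, 8.81 and 9.06 in Apc deficient epithelium (1.29, adjusted p = 0.01, and 0.0626 without that array). Among carbonic anhydrases and ion carriers, 5 of 26 rose and 2 fell (median 0.17), with 2 and 1 without Apc deficient replicate 2, and 3 and 3 when each array was centred on its median. There Car12, a second membrane-bound carbonic anhydrase, fell by 2.41 (adjusted p = 0.000462), opposite to Car4.

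Interferon-stimulated genes were the list with the largest share of falls. Of 37 measured, 17 fell and 1 rose (median -1.44). The count of falls was 5 without Apc deficient replicate 2 and up to 23 without another array, and the median was -1.40 within slide 1 and -1.20 within slide 2. Oas2, which makes the second messenger that activates RNase L, read 7.36, 6.92, 6.78 and 6.47 on the Brg1-Apc deficient arrays, against 10.79, 11.39 and 10.67 on the Apc deficient arrays. It was 16.7-fold lower (-4.06, SE 0.69, adjusted p = 0.00174). Gbp3, a guanylate-binding protein, fell by 3.66 (adjusted p = 0.000367) and the chemokine Cxcl10 by 3.27 (adjusted p = 0.00373). The difference of Cxcl10 was -4.06 without Apc deficient replicate 3. Ifit3 fell by 2.48 (adjusted p = 0.00385) and the antiviral GTPase Mx1 fell by 1.39 (adjusted p = 0.00671). Cxcl10 was uneven among Apc deficient mice, at 9.95, 10.26 and 7.73, against 7.05, 6.06, 5.59 and 5.47 in Brg1-Apc deficient mice. Each of these 5 calls held without any single array, while those of Mx2 (-2.75) and Rsad2 (-3.06), antiviral effectors, did not hold without Apc deficient replicate 2 (adjusted p = 0.057 and 0.0806). Genes outside the list that interferon is known to induce were among the largest falls of all: Ifitm3, a membrane protein that blocks virus entry, read 10.05, 11.95, 11.03 and 10.57 in Brg1-Apc deficient against 14.44, 14.41 and 13.97 in Apc deficient epithelium (-3.37, adjusted p = 0.00329), and Ly6e fell by 3.37 (adjusted p = 0.00123). Close paralogs in these families can share probes' targets, so the values of single members are less certain than the pattern of the list. Isg15, a ubiquitin-like modifier, averaged 9.09 ± 1.08 in Brg1-Apc deficient and 12.06 ± 0.64 in Apc deficient epithelium and did not pass (adjusted p = 0.0877). The list's mean level per array was 7.60 to 8.36 in Brg1-Apc deficient, 9.10 to 9.69 in Apc deficient, 7.78 to 9.56 in Brg1 deficient and 8.19 to 8.87 in control epithelium.

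The element through which interferon signalling acts on such genes (ISRE) was searched as GAAANNGAA on both strands of the same promoter windows. It was in 9 of the 13 promoters at hand of list genes that fell (69.2%), in 11 of the 15 of list genes that did not pass (73.3%) and in 8.21% of all 13336. The TCF/LEF motif CTTTGAT, searched likewise, was in 0 of the 6 promoters at hand of Wnt target and stem cell genes that fell and in 3.28% of all. Promoters of 3 members that fell are shown with their matches in capitals, because they carry the element at different places and in different numbers. They come from RefSeq on build GRCm38.p6 and are read 5′ to 3′ along the gene: Gbp3 is chr3:142559794-142560093, plus strand, Cxcl10 is chr5:92348840-92349139, minus strand, and Ifit3 is chr19:34583279-34583578, plus strand.
Gbp3: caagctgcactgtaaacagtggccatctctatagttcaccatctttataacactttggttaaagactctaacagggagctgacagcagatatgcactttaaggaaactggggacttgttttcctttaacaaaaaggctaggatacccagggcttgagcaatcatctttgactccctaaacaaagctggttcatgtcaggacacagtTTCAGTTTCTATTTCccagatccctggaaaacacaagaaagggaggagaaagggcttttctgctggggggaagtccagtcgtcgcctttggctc
Cxcl10: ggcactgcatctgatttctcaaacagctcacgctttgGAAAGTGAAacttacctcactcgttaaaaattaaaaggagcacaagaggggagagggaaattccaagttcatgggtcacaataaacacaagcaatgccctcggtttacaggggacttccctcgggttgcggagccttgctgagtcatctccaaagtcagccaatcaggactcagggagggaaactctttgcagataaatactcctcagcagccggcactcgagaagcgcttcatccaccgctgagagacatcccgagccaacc
Ifit3: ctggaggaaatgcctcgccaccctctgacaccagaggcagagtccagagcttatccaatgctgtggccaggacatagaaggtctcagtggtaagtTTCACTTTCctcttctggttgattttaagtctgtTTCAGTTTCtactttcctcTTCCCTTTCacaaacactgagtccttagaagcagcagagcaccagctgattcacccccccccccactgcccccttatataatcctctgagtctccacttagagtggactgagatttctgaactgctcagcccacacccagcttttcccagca
Gbp3 has 2 overlapping matches, Cxcl10 has 1 and Ifit3 has 3.

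Other immune lists moved less. Of 23 genes of MHC class I presentation 2 fell (median -0.28), and neither call survived leaving out Apc deficient replicate 2. None of 16 MHC class II genes passed. Of 30 genes of epithelial defence and the acute phase, 2 rose and none fell (median 0.01): Nfkbiz, a nuclear regulator of NF-kappa-B (1.25, adjusted p = 0.00444), and Reg3g, a bactericidal lectin (2.81, adjusted p = 0.0114). Reg3g read 11.80, 12.26, 13.16 and 13.05 in Brg1-Apc deficient against 8.62, 9.36 and 11.30 in Apc deficient epithelium, and its call was lost without Apc deficient replicate 1 or 2 (highest adjusted p 0.08). Without Apc deficient replicate 3 the difference was 3.58.

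Genes of junctions, keratins and adhesion changed in both directions. Of 50, 7 fell and 6 rose (median 0.14), and without Apc deficient replicate 2 the counts were 6 and 1. The tight junction proteins diverged. Cldn2, a pore-forming claudin of crypts, fell by 2.09 (adjusted p = 0.0041) and Cldn4, a sealing claudin, by 1.92 (adjusted p = 0.00317), whereas Cldn23 rose by 1.91 (adjusted p = 0.000192), with 12.40, 11.98, 12.19 and 11.99 in Brg1-Apc deficient against 9.96, 10.35 and 10.39 in Apc deficient epithelium. Pkp1, a desmosomal plaque protein, fell by 1.96 (adjusted p = 0.000186) and the keratin Krt18 fell by 1.76 (adjusted p = 0.000253). Among 51 BMP, TGF beta and hedgehog genes 4 rose and 4 fell (median 0.14), with 1 rise and 3 falls without Apc deficient replicate 2, and 2 rises and 4 falls after median centring. Smad6, an inhibitor of BMP signalling, rose by 1.69 (adjusted p = 0.000692), while the ligand Bmp7 fell by 1.47 (adjusted p = 0.00188), and Tgif1, a repressor of TGF beta responses, by 1.18 (adjusted p = 0.00383). Of the p53 targets and inhibitors of cyclin-dependent kinases, 2 of 29 rose and 2 fell (median -0.13), and 1 and 1 without Apc deficient replicate 2. Cdkn2b, the kinase inhibitor p15, read 10.31, 10.37, 10.35 and 10.28 on the Brg1-Apc deficient arrays, against 8.24, 8.34 and 8.71 on the Apc deficient arrays (1.90, adjusted p = 2.84e-05), and Ddit4, an inhibitor of mTORC1, fell by 1.67 (adjusted p = 0.00207).

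Of 22 SWI/SNF subunits other than Smarca4, 1 fell and none rose (median -0.06). Smarcc1, a core subunit, averaged 6.59 ± 0.47 in Brg1-Apc deficient and 8.37 ± 0.47 in Apc deficient epithelium (-1.78, adjusted p = 0.00586, and 0.057 without Apc deficient replicate 2). Smarca2, the ATPase Brm that is the alternative to Brg1, averaged 8.57 ± 0.22 in Brg1-Apc deficient and 9.18 ± 0.26 in Apc deficient epithelium, without overlap (-0.61, adjusted p = 0.142).

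Markers of other cells that scraped tissue can hold were checked beside these results. Of 26 genes of T cells and intraepithelial lymphocytes, 9 rose and none fell (median 0.87), with mean levels per array of 6.83 to 7.40 in Brg1-Apc deficient, 6.11 to 6.63 in Apc deficient, 7.05 to 7.87 in Brg1 deficient and 6.97 to 7.89 in control epithelium. Zap70, a kinase of the T cell receptor, rose by 1.73 (adjusted p = 0.00349). Itgae, the integrin CD103 of intraepithelial lymphocytes, read 10.60, 10.74, 9.57 and 10.46 in Brg1-Apc deficient against 8.50, 6.97 and 8.54 in Apc deficient epithelium, and the chemokine Ccl5 rose by 1.81. Without Apc deficient replicate 2, Zap70 was the 1 gene of these 9 still called, and the adjusted p of Itgae was 0.0857 and that of Ccl5 0.0801. These cells do not carry the recombination, and their part in the other results, the interferon-stimulated genes and the enterocyte genes included, was not tested. None of the measured markers passed for endothelium (16), enteric neurons and glia (15), mast cells (11), dendritic cells and macrophages (21) or plasma and B cells (13). At background in both groups were 9, 15, 10, 11 and 9 of them in the same order, which limits what this check can show. The endothelial markers had a median of -0.46, with 13 of the 16 below 0. Single genes passed in 5 further lists. In those of fibroblasts, smooth muscle and adipocytes 1 gene rose in each (Fap, Mylk and Lpl), and in those of acinar and red blood cells 1 fell in each (Rnase1 and Hba-a1). Each of these 5 calls was lost without Apc deficient replicate 2.

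The last comparison asked whether the difference with Brg1 loss depended on Apc. It took the difference between Brg1-Apc deficient and Apc deficient epithelium minus that between Brg1 deficient and control epithelium. Control mice had no Cre, so in the second difference Cre and Brg1 loss cannot be told apart, and neither can they in the interaction. This interaction passed in 177 genes (1.07%), above 0 in 132 and below 0 in 45. The count was 21 without Apc deficient replicate 2, 422 without Brg1 deficient replicate 4 and 50 to 91 without any one of 8 others, so single arrays set much of it. Brg1 deficient replicate 4 enters the interaction through its group's mean as well as through the spread. Of the 177, 128 also changed between Brg1-Apc deficient and Apc deficient epithelium, 84 higher and 44 lower. The largest values above 0 belonged to genes with lower means in Brg1 deficient than in control epithelium. Cyp3a25, a steroid and drug hydroxylase, averaged 6.10 ± 1.45 in Brg1-Apc deficient and 6.23 ± 1.52 in Apc deficient epithelium, against 5.39 in Brg1 deficient and 10.15 in control epithelium, for an interaction of 4.62 (adjusted p = 0.028). The brush border trehalase Treh had 4.41 (adjusted p = 0.032), the peptidase Mme 4.30 (adjusted p = 0.023) and the peptidase Xpnpep2 4.27 (adjusted p = 0.02). All 4 lost the call without Apc deficient replicate 2 (adjusted p = 0.0807 to 0.118), and all but Xpnpep2 lost it without other single arrays as well. Of the genes that were higher with Brg1 loss in the Apc deficient setting, Edn2, an endothelin, averaged 9.56 ± 0.65 in Brg1-Apc deficient and 6.59 ± 1.49 in Apc deficient epithelium, against 8.85 in Brg1 deficient and 9.81 in control epithelium (interaction 3.94, adjusted p = 0.017; 3.08 without Apc deficient replicate 2). Asah2 had 3.78 (adjusted p = 0.01), Rapgefl1 2.82 (adjusted p = 0.00046) and Gpt 1.95 (adjusted p = 0.01).

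On the other side, Ifit3 had the lowest value (-3.74, adjusted p = 0.015). It averaged 9.02 ± 0.72 in Brg1-Apc deficient against 11.50 ± 0.55 in Apc deficient epithelium, and 10.10 in Brg1 deficient against 8.85 in control epithelium. Ly6d followed (-3.09, adjusted p = 0.01), then Phf11d (-2.94, adjusted p = 0.037), Atg9b (-2.85, adjusted p = 0.003) and Cldn2 (-2.61, adjusted p = 0.034). For Atg9b the means were 7.27 in Brg1-Apc deficient and 10.56 in Apc deficient epithelium, and 5.33 in Brg1 deficient and 5.78 in control epithelium, the last pair below background. Of the genes named in these 2 paragraphs, Edn2, Asah2, Rapgefl1, Gpt, Ly6d and Atg9b kept the interaction call without any single array. Ifit3, Phf11d and Cldn2 lost it without Apc deficient replicate 2 (adjusted p = 0.068, 0.141 and 0.118). Lgr5 and Myc passed as well (-1.72 and -1.97, adjusted p = 0.03 and 0.039), and both lost the call without Apc deficient replicate 1 or 2 and other single arrays (adjusted p up to 0.0958 and 0.134). Olfm4 did not (-1.27, adjusted p = 0.54), and its mean was also lower in Brg1 deficient (6.29) than in control (9.87) epithelium.

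**Figure D5:**
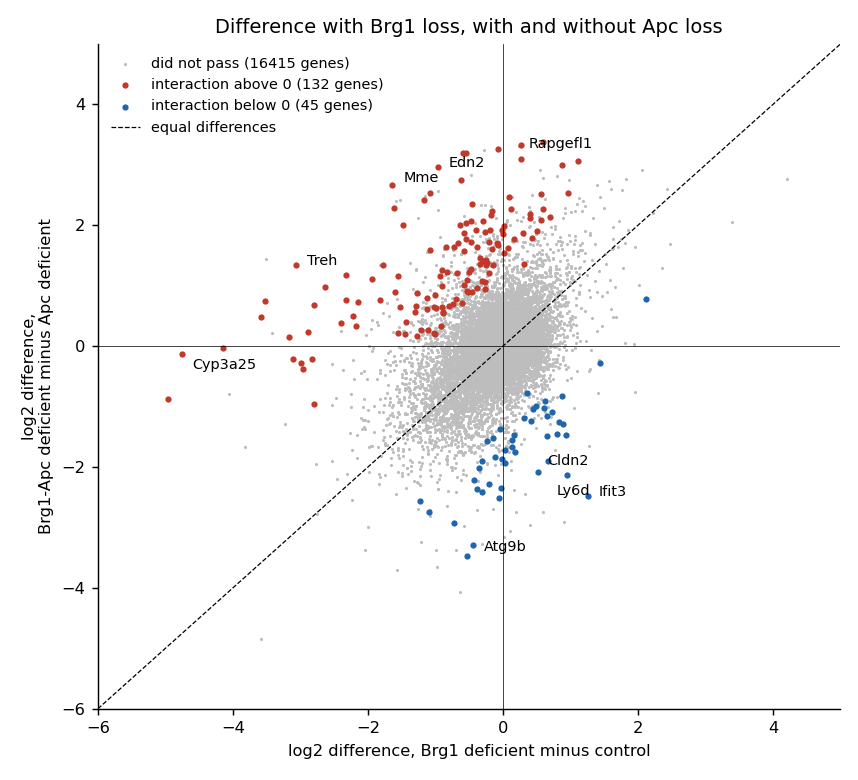
Each point is 1 of 16592 genes, with the log2 difference of Brg1 deficient minus control epithelium on the x axis and that of Brg1-Apc deficient minus Apc deficient epithelium on the y axis. The dashed line marks equal differences; the 132 red genes lie above it and the 45 blue genes below it, with Cyp3a25 far to the left and Ifit3 at the lower right.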

How the data were processed

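Total RNA of epithelium scraped from the jejunum was amplified with an Illumina kit and labelled with Cy3, per the labels' protocols, for 15 bead arrays. The series' design text gives cohorts of 4, 3, 4 and 4 mice. The values used are the log2 levels the authors deposited for 25695 probes. Their background correction and normalization are not given in the sources used here. Across the 15 arrays the means were 6.51 to 6.59 and the medians 5.59 to 5.90. Interquartile ranges were 2.01 to 2.29 on the Brg1-Apc deficient arrays and 2.28 to 2.56 on the Apc deficient arrays. The narrowest was 1.23, on Brg1 deficient replicate 4. GEO's platform annotation gave 23976 probes 1 gene symbol, none several and left 1719 unnamed here. Each of 16592 genes was represented by its brightest probe over the 15 arrays. Of 800 other probes of changed genes, 204 passed with the same sign and 173 had the opposite sign, none of them past the test.

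The 4 genotypes' means were estimated together in limma 3.58.1 under R 4.3.3 (lmFit and eBayes, 11 residual degrees of freedom), so that the 15 arrays shared 1 estimate of spread. All p-values are from this moderated test, Benjamini-Hochberg adjusted over the 25695 probes and called under 0.05. The number of arrays limits the precision, and the median SE of a difference was 0.25. The fit was tested on simulated data. Tables were handled in Python 3.11.15 with pandas 2.3.3 and plotted with matplotlib 3.10.9.

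Genes named in the text were drawn from a rule: Smarca4 and Apc; among called genes without overlap, the 15 with the largest rise and the 15 with the largest fall; the 10 of smallest p in each direction; in each list up to 6 called members of smallest p, or 2 as values, with other members as values; the 5 largest interactions on each side; up to 3 genes per symbol family; and the 5 brightest in each direction. Not all of these are named. The 53 lists hold 1320 measured genes, 11 lists being of other cell types. Members and lists were chosen with earlier results of these data known. Promoter sequences, 250 bases before to 50 after the start, are RefSeq's (GRCm38.p6) and matched 13336 genes by symbol.

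Alternatives covered the arrays of the 2 groups only, slide as a block and within slides, a replicate block, quantile normalization, median centring, a filter on dim probes, a trended prior, array weights, other choices of probe and each array left out. One more fit, chosen after seeing the data, left out the 2 arrays that stood apart, which were replicate 2 of the Brg1-Apc deficient and replicate 4 of the Brg1 deficient group. Same-numbered arrays were checked for shared deviations and were not taken as pairs.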

Additional observations from a re-analysis of the deposited data

Results flagged for a closer look

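In 10 of 142 named genes 1 of the 4 Brg1-Apc deficient arrays lay far from the other 3 by Dixon's test, which chance passes in about 1 of 20 groups, so a similar number would come by chance. Replicate 1 was lowest for Ang4 (7.87), Slc2a1 (8.27) and Uqcrc1 (13.14) and highest for Fzd7 (6.89, where the other 3 read 6.82). Replicate 3 was highest for Dtx4 (7.14) and Mthfd2 (7.65). Replicate 4 was lowest for Mcm3 (6.36), Phf11d (6.46) and Slc7a11 (5.12) and highest for Ppargc1a (10.02). None of the 10 fell on replicate 2, the array that the second principal component set apart. The group of 3 Apc deficient arrays was too small for this test.

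In 38 named genes the interaction term of the limma fit passed. Their difference between Brg1-Apc deficient and Apc deficient epithelium differed from that between Brg1 deficient and control epithelium. The latter pair differs in Cre as well as in Brg1. Without Apc deficient replicate 2, 32 of the 38 were no longer past the test, and the other 6 passed without any single array. Those 6 were Asah2 (3.78), Edn2 (3.94), Rapgefl1 (2.82), Gpt (1.95), Ly6d (-3.09) and Atg9b (-2.85). Among enterocyte and metabolic genes the interaction was above 0 for Aldh4a1 (2.79), Slc26a6 (3.06), Arg2 (3.34), Naaladl1 (3.75), Slc1a1 (1.57), Slc7a9 (1.52), Dgat1 (1.85), Pla2g12b (1.78), Mogat2 (2.35), Slc51a (2.58) and Ppargc1a (1.89). All 11 rose in Brg1-Apc deficient against Apc deficient epithelium. Between Brg1 deficient and control epithelium their differences lay between -0.69 for Ppargc1a and 0.97 for Slc1a1. Cyp3a25 (4.62), Treh (4.41), Mme (4.30) and Xpnpep2 (4.27) had the largest values above 0. Their differences between Brg1 deficient and control epithelium were -4.76, -3.07, -1.64 and -3.52 in the same order. Values above 0 were also found for the goblet gene Bcas1 (1.79), the tuft gene Il17rb (1.35), the kinase inhibitor Cdkn2b (1.40), the Notch feedback gene Nrarp (1.84), the T cell kinase Zap70 (2.21) and the myosin kinase Mylk (2.33). The difference of Nrarp was -0.96 in Brg1-Apc deficient against Apc deficient and -2.80 in Brg1 deficient against control epithelium.

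Values below 0 belonged to Rgcc (-2.20), Cd276 (-1.33), Ror2 (-1.80), Lgr5 (-1.72), Myc (-1.97), Phgdh (-1.85), Car12 (-2.10), Tgif1 (-1.49), Cldn2 (-2.61), Ifit3 (-3.74) and Phf11d (-2.94). Each of these fell in Brg1-Apc deficient against Apc deficient epithelium. Myc averaged 5.53 in Brg1 deficient and 5.49 in control epithelium, below the background level of 5.90, and Lgr5 5.91 and 6.02, close to it.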

How the results depend on the processing

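The 1296 changed genes kept the sign of their difference in each fit described here, where a filter on dim probes left 1258 of them. In 1245 of the 1296 the 2 groups did not overlap. For these, fits that drop or weight arrays or change the prior could not reverse the sign. That filter gave 1656 changed genes of 9002 tested. The count was 1120 with the replicate number as a replicate block, 1274 with slide as a block, 1293 after quantile normalization and 1172 with each array centred on its median. Same-numbered Brg1-Apc deficient and Apc deficient arrays did not deviate together (r = 0.142, 0.0048 and -0.057), so the numbers were not taken as pairs. With array weights 2101 genes changed (977 higher, 1124 lower) and 407 passed the interaction. With the arrays of the 2 groups alone 1028 were lower, and the interaction could not be fitted. The share higher was 50.2% of the changed genes, 57.5% after quantile normalization and 43.4% with median centring. Within slide 1 the interaction passed in 72 genes. Within slide 2, with 2 arrays against 1, 1 gene passed in the comparison (0 higher, 1 lower) and 0 in the interaction, with 1334 at an unadjusted p under 0.05. Without the 2 arrays that stood apart the interaction passed in 548 genes. Leaving out each array in turn gave 465 to 2043 changed genes, 262 to 923 higher, 203 to 1120 lower and 21 to 422 for the interaction. The cause of these shifts was not tested, beyond the loss of arrays itself. Of 129 named genes called, 96 were called without any 1 array and none changed sign. Where the most variable probe of a called gene was not its brightest, 6 calls held with that probe and 6 were lost.

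Among the named genes, the sign of the difference changed for 3, none of them called. Cdh1 was 0.0095 after quantile normalization, 0.0787 with the replicate block and -0.0885 to 0.0012 with each array left out. Vil1 was -0.24 without Apc deficient replicate 3, -0.14 without Brg1-Apc deficient replicate 1 and up to 0.63 without another array. Cyp3a25 was 0.0885 with array weights, 1.66 within slide 2, 0.74 without Apc deficient replicate 1, 0.44 without Brg1-Apc deficient replicate 2 or the 2 arrays and as low as -0.73 without another array. In 82 lower and 83 higher genes the lower mean was at or below the background level. That level is an array median and not a measured detection limit. Whether the fold changes of these genes understate the change in level was not tested.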
